A study of Mus musculus with 19 samples.

Results

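Tumours that arose from Krt14-expressing skin cells after activation of BRAF were compared with normal skin. The comparison used 4 K14 tumour libraries and 4 normal skin libraries, chosen by their titles from the 19 libraries of the series, and the K5-origin tumours were left out. All 4 tumours came from female mice of genotype K14:BRAFV600E and were labelled squamous cell carcinoma, and all 4 skin samples came from female mice of genotype WT, described by the study as control littermates. In the tumour mice a tamoxifen-inducible Cre recombinase (CreERT2, spelled CreRT2 in the labels) under the Krt14 promoter switches on the activated kinase, with the drug applied to shaved backs in the methods. The growth label, worded alike for all 8 samples, gives an age of 7 to 20 weeks for mice in which the kinase was induced and no separate age for the skin donors. The labels do not say whether the skin donors received tamoxifen or from which body site their skin was taken, so activated BRAF, induction and tumour growth cannot be told apart here. The Krt14 promoter is active in the basal layer of the epidermis and in the outer root sheath of hair follicles, and it marks a keratin programme rather than 1 kind of stem cell. The study describes a single tumour per mouse for this model, on the back where the drug was applied, but the labels tie no library to a mouse, so p-values measure only the spread between these samples.

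BRAF is a serine/threonine kinase that active RAS recruits to the membrane. It phosphorylates MEK, MEK phosphorylates ERK, and ERK drives transcription through AP-1 and ETS factors. In the epidermis basal keratinocytes attached to laminin make Krt5 and Krt14, and cells that leave the basal layer switch to Krt1 and Krt10 and then assemble the cornified envelope, a shell of cross-linked proteins and lipids that forms the skin barrier. Injured or inflamed epidermis makes a different keratin set, led by Krt6a, Krt6b, Krt16 and Krt17.

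Levels are given as CPM, the counts of a gene per 1000000 counts of its library, scaled by the trimmed mean of M values (TMM), in the order tumours 1 to 4 and skin 1 to 4. Differences are log2 fold changes, K14 tumours over skin, with their standard errors, 4 libraries against 4. A gene is said to have risen or fallen where its adjusted p was under 0.05 in edgeR's quasi-likelihood test, and to have done so by over 2-fold where it also passed edgeR's test against a 2-fold change (glmTreat) at the same threshold. Total counts lay between 45715309 and 71841193 per library. Skin and tumours separated along the first principal component, which held 70.7% of the variance. Between 3242 and 3670 genes had a count of 0 in the skin libraries and between 8034 and 10329 in the tumours, although depth overlapped.

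Some libraries stood apart from the others of their group. K14 tumour 1 held hair keratins and inner root sheath genes at a summed level of 2727 CPM, against 158.4 to 260.3 CPM in the other tumours, and skeletal muscle genes at 872.6 CPM against 22.76 to 48.65 CPM. Skin 2 held hair keratins at 74.39 CPM against 2861 to 7296 CPM in the other skin libraries. Dermal collagens and proteoglycans summed to 4215 and 1130 CPM in skin 1 and 2 and to 17240 and 23890 CPM in skin 3 and 4. The sample codes in the labels carry 1 prefix for the skin libraries and another for the K14 tumours, and anything shared within a prefix cannot be told apart from the group.

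Protein-coding genes changed in both directions. Of 17853 protein-coding genes tested, 5180 rose and 4349 fell, together 53.4%. By over 2-fold, 1587 rose (8.89%) and 1692 fell (9.48%), together 18.4%. The counts of list members given below are to be read against these shares. The libraries of the groups did not overlap for 51.7% of protein-coding genes, higher in every tumour for 28.7% and lower in every tumour for 23%. By size of change, the raised genes were led by cornified envelope proteins, stefins and a defensin, and the lowered genes by genes of skeletal muscle. Raised genes made up 48.4% of the protein-coding genes that changed by over 2-fold, but 12.8% when library totals replaced TMM factors. That scaling moved the median log2 fold change of protein-coding genes from -0.04 to -0.82, and with it a change is to be read against that shift. Across all 31628 genes tested, 16176 (51.1%) passed the adjusted p, 6341 raised (20%) and 9835 lowered (31.1%), and 7465 (23.6%) passed the 2-fold test, 2199 raised (6.95%) and 5266 lowered (16.6%). Their libraries did not overlap for 50.9%, 19.8% higher and 31.1% lower in the tumours. Raised genes were 29.5% of the genes past the 2-fold test with TMM and 8.86% with library totals.

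**Figure D1:**
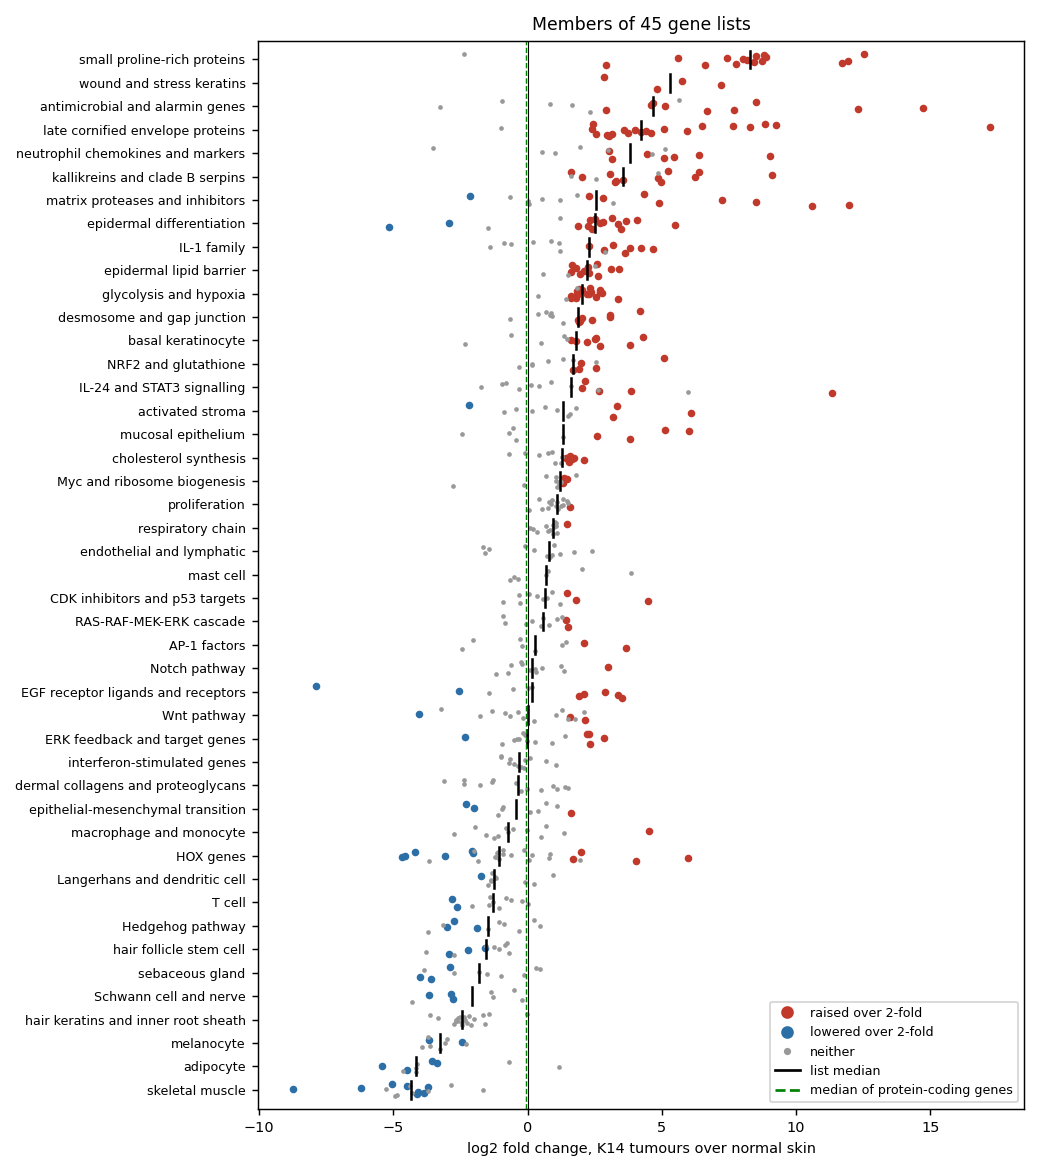
Log2 fold changes (horizontal axis, K14 tumours over normal skin) of the members of every gene list described in the text, 1 point a gene. Red points rose by over 2-fold, blue points fell by over 2-fold and grey points did neither, black bars are list medians, and the dashed line is the median of protein-coding genes at -0.04. Small proline-rich proteins stand at the top with a median of 8.30 and skeletal muscle genes at the bottom with a median of -4.34.

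Krt14, the basal keratin whose promoter drove Cre, stood at 38400, 45320, 59560 and 50990 CPM in the tumours and at 2201, 4286, 2852 and 4519 CPM in skin. Its log2 fold change was 3.81 ± 0.30, and the lowest tumour lay far above the highest skin library. Krt5, its partner in the basal keratin filament, stood at 11020, 11160, 13300 and 11740 CPM and at 1250, 2540, 1439 and 2102 CPM, with a log2 fold change of 2.69 ± 0.25. Braf itself was lower in the tumours, at 48.1, 53.5, 50.3 and 48.1 CPM against 142, 67.2, 77.8 and 69.6 CPM. The groups did not overlap for Braf, and skin 1 was the highest library. The differences in mean log2 CPM were 3.85 for Krt14, 2.74 for Krt5 and -0.76 for Braf, and each had a two-sided exact permutation p of 0.0286, the smallest that the 70 splits of 8 libraries allow. Counts per gene do not separate the mutated allele from the normal one.

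Among the kinases and GTPases of the RAS, RAF, MEK and ERK cascade, Hras and Map2k1 rose by over 2-fold, 2 of 11 members, and 1 to 3 members did so when 1 library was left out. Hras, a RAS GTPase, stood at 227, 228, 258 and 237 CPM against 77.2, 91.4, 91.8 and 74.2 CPM, with a log2 fold change of 1.505 ± 0.12. Map2k1, which encodes MEK1, stood at 104, 108, 164 and 151 CPM against 38.2, 43.5, 54.1 and 60.7 CPM. Map2k2 and the ERK gene Mapk3 rose as well, with log2 fold changes of 1.09 ± 0.11 and 1.30 ± 0.23. Ksr1, a scaffold of the cascade, fell like Braf, at -0.93 ± 0.22. The list median was 0.56 and turned to -0.23 with library totals, when none of the members was raised by over 2-fold.

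**Figure D2:**
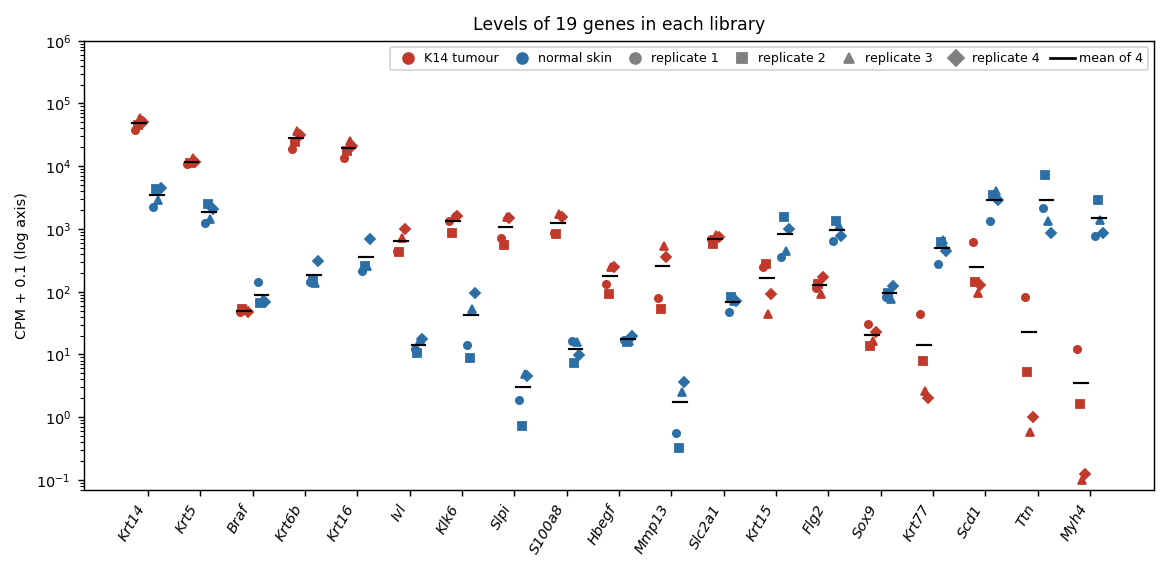
Levels in every library (vertical axis, CPM with a small offset added, log axis) of genes described in the text, K14 tumours in red and normal skin in blue, with a marker for each replicate number and a bar at the mean of 4. Krt14 lies at 38400 CPM or more in every tumour and at 4519 CPM or less in every skin library, and Myh4 lies at 12.2 CPM or less in every tumour and at 766.2 CPM or more in every skin library.

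The 12 protein-coding genes raised most among those with at least 50 CPM on average stood at 8 CPM or less in every skin library. Lce3b, a late cornified envelope protein, stood at 174, 158, 598 and 342 CPM in the tumours and at 0 in every skin library, at least 8350-fold higher when 3 counts are set in each skin library. Gm5416, a predicted gene of the stefin A cluster, stood at 118, 105, 356 and 318 CPM against 0, at least 5890-fold higher. Defb4, a beta-defensin of epithelial surfaces, stood at 34.1, 42, 90.1 and 63.5 CPM against 0, at least 1510-fold higher. These 3 genes had no count in any skin library, and for each the tumours 3 and 4 were above 1 and 2.

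Stefins, small inhibitors of cysteine proteases, formed the largest family among the 12. Stfa1 stood at 631, 515, 1395 and 1756 CPM against 0.354, 0.38, 0.359 and 0.182 CPM, Stfa2 at 264, 274, 662 and 642 CPM against 0.646, 0.0524, 0.0436 and 0.0454 CPM, and BC100530 at 2497, 2346, 3668 and 4055 CPM against 2.54, 2.76, 7.96 and 3.86 CPM. BC117090 of the same cluster had a log2 fold change of 10.38 ± 1.04. The cluster lies on chromosome 16, where 11 of 22 protein-coding genes tested between 36000001 and 37000000 (GRCm38) rose by over 2-fold. Spink7, a serine protease inhibitor of stratified epithelia, stood at 92.1, 146, 152 and 149 CPM against 0, 0, 0 and 0.659 CPM. Akr1d1, a steroid reductase best known in liver, stood at 115, 182, 161 and 150.2 CPM against 0.553, 0, 0.468 and 0 CPM. Serpinb3a, Lce3e and Sprr2a2 completed the 12, with log2 fold changes of 9.09 ± 0.9965, 9.25 ± 1.72 and 11.70 ± 0.44. Sprr2a2 is uncertain, because 92.7% of the 101-base windows of its transcripts are shared with other genes, and the share was 36.3% for Lce3e.

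The 12 lowered most were led by muscle genes. Myh4, a fast myosin heavy chain, stood at 12.2, 1.53, 0 and 0.0244 CPM against 766, 2877, 1399 and 874 CPM. Ttn, the giant spring protein of the sarcomere, stood at 83.7, 5.21, 0.475 and 0.901 CPM against 2128, 7189, 1346 and 851 CPM. Both were highest among the tumours in tumour 1, and neither overlapped with skin. Mstn, a secreted inhibitor of muscle growth, had a log2 fold change of -8.50 ± 1.06. Klhl31, Pvalb, Mybpc2, Apobec2, Cmya5 and Myoz1, also muscle genes, had log2 fold changes between -6.77 and -5.05. Krt77, a suprabasal keratin, was the keratinocyte gene of this group and is described with the differentiation genes. Mup22, a major urinary protein, stood at 1.55, 0, 0 and 0 CPM against 71.9, 80.7, 219.9 and 74 CPM, but all of its windows (100%) are shared with its paralogs and the value is uncertain.

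Basal keratinocyte genes were mostly higher in the tumours, with 8 of 13 members raised by over 2-fold, 10 raised and 2 lowered, and a list median of 1.81. With DESeq2 6 were raised by over 2-fold. With library totals 3 were raised and 2 lowered by over 2-fold, and the median was 0.999. Lama3 and Lamb3, laminin chains of the basement membrane that basal cells grip, rose by 2.51 ± 0.44 and 2.54 ± 0.48 on the log2 scale. The integrins of the same adhesion complex followed, with Itga3 at 2.22 ± 0.31 and Itga6 at 1.81 ± 0.31. Krt15, a keratin of quiescent basal and bulge cells, went the other way, at 252, 278, 44.3 and 90.8 CPM against 352, 1524, 445 and 998 CPM. Its log2 fold change was -2.32 ± 0.70, tumours 3 and 4 were the lowest, and the groups did not overlap, but the call was lost without K14 tumour 4, skin 2 or skin 4. Dst, a linker of keratin to the hemidesmosome, also fell, at -0.62 ± 0.23, close to the threshold (edgeR adjusted p = 0.049).

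Genes of epidermal differentiation rose as well, 13 of 17 by over 2-fold, with a median of 2.52. Krt1 stood at 10990, 22520, 10750 and 12340 CPM against 806, 1993, 1284 and 929 CPM and Krt10 at 7587, 18740, 7526 and 9854 CPM against 1173, 2801, 2701 and 1717 CPM. Tumour 2 was the highest for both, and no tumour overlapped with skin. Ivl (involucrin), an early protein of the cornified envelope, stood at 444, 422, 705 and 1009 CPM against 12.2, 10.4, 16.9 and 17.6 CPM, a log2 fold change of 5.50 ± 0.36 (edgeR adjusted p = 2.8e-05). Lor (loricrin), the main late envelope protein, stood at 1958, 3588, 2048 and 2097 CPM against 116, 226, 395 and 199.7 CPM. Flg, Hrnr and Casp14, which make and process filaggrin-type proteins of the outermost layers, rose by 2.69 ± 0.33, 2.80 ± 0.28 and 3.65 ± 0.25 on the log2 scale. Tgm3, a transglutaminase that cross-links the envelope, stood at 464, 921, 1751 and 1298 CPM against 148, 31.1, 55.8 and 28 CPM and was highest in tumour 3.

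The 2 members of the differentiation list that fell by over 2-fold were Flg2 and Krt77. Flg2, a filaggrin relative, stood at 114, 130.3, 92 and 171 CPM against 636, 1353, 1113 and 768 CPM, a log2 fold change of -2.93 ± 0.29 (edgeR adjusted p = 0.0001). Krt77 stood at 43.3, 7.66, 2.49 and 1.9 CPM against 281, 609.7, 678 and 440.5 CPM, a log2 fold change of -5.18 ± 1.12. The groups did not overlap for either gene, and for Krt77 tumour 1 was the closest to skin. In the fit over all 19 libraries neither was called lowered by over 2-fold. In a fit over 15 libraries 2 members of the list were. That fit left out some Ivl-origin and K5-origin tumours, chosen because earlier results of these data showed a trace of the study's batch adjustment in them. Krt2, another late suprabasal keratin, was close to absent in both groups, at 5 CPM or less in every library.

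The small proline-rich proteins, cross-bridges of the cornified envelope, rose together. Of 16 members, 15 rose by over 2-fold, with a median log2 fold change of 8.30, or 8.28 with the genes absent from skin at their lower bound. Sprr1b stood at 1895, 2184, 4533 and 3800 CPM against 57.4, 11, 32.1 and 27.2 CPM, and Sprr2d stood at 238, 275, 825 and 621 CPM against 0.922, 0, 2.39 and 1.27 CPM. Sprr3 had no count in skin and stood at 5.13, 6.55, 20.4 and 18.2 CPM in the tumours, at least 330-fold higher. Sprr1a was the member with most RNA in skin, at 169, 57.5, 399 and 632 CPM against 1394, 1022, 3944 and 3107 CPM in the tumours. Tumours 3 and 4 were above 1 and 2 for these 4 genes. Sprr4, the remaining member, stood at 24.4, 3.3, 4.47 and 4.29 CPM against 2.49, 1.39, 52 and 135 CPM and did not pass the test, with skin 3 and 4 above every other library.

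The late cornified envelope genes lie next to them on chromosome 3, and 20 of 21 rose by over 2-fold, with a median of 4.22. Lce1g stood at 250.2, 343, 633 and 468 CPM against 4.26, 4.89, 9 and 9.23 CPM and Lce3d at 209, 201, 542 and 315 CPM against 3.46, 0, 1.66 and 1.23 CPM. Lce3d shares 27.9% of its windows with other genes, and Lce3c shares 24%. The Lce3 genes, which are known for their induction after barrier damage, had their smallest log2 fold change in Lce3c, 6.495 ± 0.47, and the raised Lce1 genes lay between 2.38 (Lce1l) and 5.95 (Lce1g). Lce1m was the exception, at 71.7, 91.9, 38.9 and 122 CPM against 46.7, 184, 179 and 242 CPM, and the test did not call it. Between 92000001 and 93000000 on chromosome 3 (GRCm38), 43 of 47 protein-coding genes tested (91.5%) rose by over 2-fold and none fell. That was the highest share among 819 windows of 1 Mb with at least 8 such genes.

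Promoters of these genes are shown because AP-1, the factor family that ERK activates, binds a short palindrome. The motif searched was TGANTCA, which reads the same on both strands, in the 300 bases from 250 before to 50 after each start (RefSeq, GRCm38.p6). It was present in 2565 of 32851 promoters (7.81%). Of the 204 named genes raised by over 2-fold, 153 had a promoter in the table, and 30 of their 170 promoters held the motif (17.6%). Of the 51 named genes lowered by over 2-fold, 33 had one, and 3 of 47 promoters held it (6.38%). Among the 369 named genes that did neither, 28 of 296 promoters held it (9.46%). The genes were picked by list and by size of change, and their promoters within a family resemble each other, so these shares are a description. A match is a string of letters and not a bound site. Windows of 27 bases around the motif, which is in capitals, are given 5′ to 3′ on the gene's strand.
Sprr1a (chr3:92485981-92486007, minus strand): gggaggagggTGAGTCAtaggtgactg
Sprr1a (chr3:92486011-92486037, minus strand): taactaaagcTGAGTCAgagggtgaac
Sprr1b (chr3:92438874-92438900, minus strand): gcacctaggaTGAATCAtgtctgacag
Sprr2b (chr3:92316500-92316526, plus strand): aaaggactctTGAGTCAcaagactcaa
Sprr2d (chr3:92338937-92338963, plus strand): gagtgctcacTGAGTCAcaggtctcaa
Sprr2h (chr3:92385477-92385503, plus strand): ggatggtctcTGAGTCActgcacttta
Ivl (chr3:92573835-92573861, minus strand): agttatcagaTGACTCAgaaaggaagg
Lor (chr3:92083174-92083200, minus strand): gatcaatagaTGAGTCAgagcaggaca
Krtdap (chr7:30787814-30787840, plus strand): gatccggggaTGAGTCActagggtggg
Krt13 (chr11:100120595-100120621, minus strand): cagtgggcaaTGACTCAgagggtgtaa
Il1a (chr2:129309968-129309994, minus strand): cagagaagccTGACTCAgacttaagtc
Mmp10 (chr9:7502269-7502295, plus strand): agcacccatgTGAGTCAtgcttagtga
Mmp13 (chr9:7272469-7272495, plus strand): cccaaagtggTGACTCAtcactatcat
Srxn1 (chr2:152105469-152105495, plus strand): aaattcacccTGAGTCAgcggccgggc
Flg (chr3:93273433-93273459, plus strand): tggttaagaaTGAATCAgaccatccca
Flg2 (chr3:93197194-93197220, plus strand): tgattagaaaTGAATCAgcccatccca

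In the Sprr2 promoters shown the motif lay between 195 and 190 bases before the start, and the Sprr2e window was the same as that of Sprr2d. Flg and Flg2, which moved in opposite directions, both held the variant TGAATCA, 100 and 66 bases before the start. Among the 12 genes raised most, 7 had a promoter in the table and none of these held the motif.

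Wound and stress keratins rose without exception, 4 of 4 by over 2-fold, with a median of 5.29. Krt6b stood at 19050, 24330, 36640 and 31920 CPM against 144, 159.8, 138 and 308 CPM, and Krt16 stood at 13630, 17760, 24800 and 20930 CPM against 211, 259, 256 and 701 CPM. Krt6a stood at 10540, 12320, 21560 and 18600 CPM against 422, 418, 374 and 1001 CPM. The lowest tumour was over the highest skin library for each, and skin 4 was the highest of the skin libraries. Krt17 had a log2 fold change of 2.84 ± 0.43. Krt6a and Krt6b share 30.4% of their windows with other genes and Krt16 shares 24.1%, so the split between paralogs is uncertain while the sum of the list, 46500 to 88490 CPM in tumours and 1162 to 2841 CPM in skin, is less so. Per exon length, Krt14 was the most abundant protein-coding gene of the tumours, at 53300 per 1000000 (TPM) against 8100 in skin, followed by Krt6b at 23900 and Krt16 at 23600. The 10 protein-coding genes highest per length in tumours held 16.3% to 19.4% of that total in the tumours and 3.47% to 5.15% in skin.

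Keratins and factors of mucosal epithelium, such as mouth and oesophagus, were raised in 4 of 9 cases. Pitx1, a homeodomain factor of oral ectoderm and hindlimb, stood at 58.9, 62.2, 91.5 and 80.4 CPM against 1.45, 3.56, 2.2 and 1.23 CPM, a log2 fold change of 5.12 ± 0.38. Krt78 stood at 267, 564, 623 and 564 CPM against 62, 116, 82.8 and 73.1 CPM. Krt13 and Pax9 rose from 1.24 CPM or less, by 3.80 ± 0.37 and 6.02 ± 0.80 on the log2 scale. Their levels in the tumours stayed at 18 CPM or less. The other 5 members were not called. Krt76 was at 1.31 ± 0.95, Krt4 at -0.42 ± 0.71, Sox2 at -0.54 ± 0.31, Krt84 at -0.70 ± 0.83 and Krt36 at -2.46 ± 0.98.

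Kallikreins, proteases that act in the shedding of the outermost cells, were listed with Spink5 and clade B serpins. All 15 members tested rose, 12 of them by over 2-fold, with a median of 3.56. Klk6 stood at 1345, 863, 1541 and 1607 CPM against 14, 8.69, 52 and 95.6 CPM, and Klk8 stood at 583, 693, 852 and 814 CPM against 43.6, 58, 75.3 and 72 CPM. Spink5, the inhibitor of epidermal kallikreins, stood at 1640, 1975, 4287 and 3288 CPM against 309, 731, 713 and 1017 CPM. The protease and its inhibitor were thus both higher, with log2 fold changes of 4.97 ± 0.81 for Klk6 and 2.01 ± 0.41 for Spink5. Serpinb12 stood at 456, 979, 559 and 497 CPM against 13.7, 24.1, 18.6 and 10.1 CPM. On chromosome 7, 11 of 29 protein-coding genes tested between 43000001 and 44000000 rose by over 2-fold, all kallikreins except Iglon5.

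**Figure D3:**
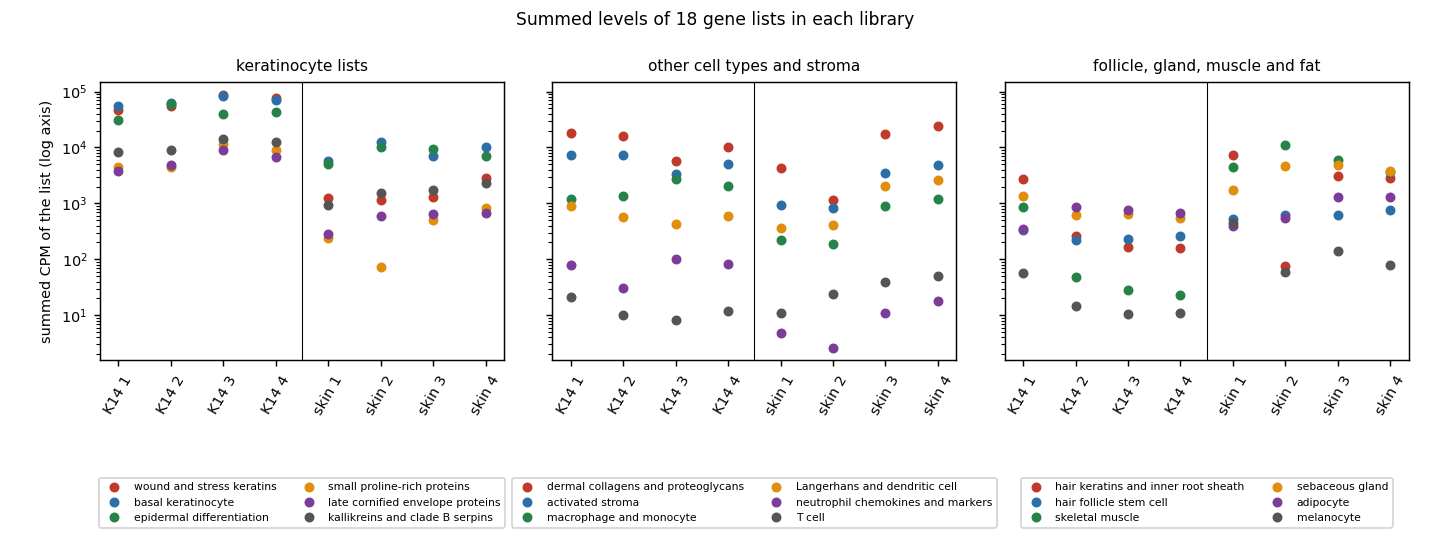
Summed levels of gene lists in every library (vertical axis, summed CPM, log axis), in panels for keratinocyte lists, for other cell types and stroma, and for follicle, gland, muscle and fat, with tumours left and skin right of the line. The 6 keratinocyte lists are higher in every tumour than in every skin library, skeletal muscle is highest in skin and in tumour 1 among the tumours, and dermal collagens split skin 1 and 2 from skin 3 and 4.

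Genes of the epidermal lipid barrier rose, 12 of 15 by over 2-fold and 14 in all, with a median of 2.19. Alox12b, a lipoxygenase that prepares ceramides for the envelope, stood at 141, 246, 376 and 304 CPM against 29, 52.3, 54.5 and 38.1 CPM. Asprv1, a protease of the granular layer, stood at 3785, 4984, 4831 and 5313 CPM against 233, 309.7, 539 and 713 CPM. Cers3, the ceramide synthase of the barrier, rose by 2.30 ± 0.22. Cholesterol synthesis moved less, with 7 of 15 members raised by over 2-fold, 12 raised in all and a median of 1.29. Sqle, the squalene epoxidase of that pathway, stood at 319, 300.5, 387 and 377 CPM against 106, 126, 102 and 79.4 CPM. The count was 3 with DESeq2, 0 with library totals in place of TMM and 4 without skin 1 or skin 3. Desmosome and gap junction genes were raised in 8 of 15 cases by over 2-fold, among them Dsc2 at 3.08 ± 0.49, Gjb6 at 4.18 ± 0.51 and Perp at 2.39 ± 0.22. With library totals 3 of the 15 were raised and 1 lowered by over 2-fold. Dsg2, a desmoglein of simple epithelia, fell, at -0.67 ± 0.15.

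Feedback genes of ERK did not move as a group. Of 15 members, 4 rose by over 2-fold and 1 fell, with a median of -0.04. Dusp5, a nuclear ERK phosphatase, stood at 65.7, 77.9, 99.3 and 97 CPM against 13.5, 11.2, 17.7 and 25.7 CPM. Spred3, Ier3 and Phlda1 rose by 2.84 ± 0.38, 2.28 ± 0.24 and 2.22 ± 0.39, although the exons of Phlda1 overlap another gene in part. Dusp6, the cytoplasmic ERK phosphatase often read as a gauge of the pathway, stood at 163, 51.2, 86.1 and 142 CPM against 70.2, 28.6, 69.6 and 67.5 CPM and did not pass the test, at 0.91 ± 0.40 (edgeR adjusted p = 0.086). Tumour 2 lay inside the range of skin for Dusp6. Dusp4 stood at 5.42, 1.75, 12.5 and 8.04 CPM against 12.3, 9.86, 13.5 and 18.3 CPM and was not called. Etv4, an ETS factor downstream of ERK, rose by 1.39 ± 0.37, and Etv1 of the same family fell by over 2-fold, at -2.33 ± 0.40.

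Among AP-1 factors Fosl1 and Junb rose by over 2-fold, 2 of 9 members. Junb stood at 466, 333, 688 and 629 CPM against 113, 96.2, 142 and 137 CPM. Fosl1 stood at 6.61, 5.02, 14.5 and 13.9 CPM against 0.861, 1.09, 0.632 and 0.545 CPM, but its exons overlap those of another gene and counting by strand is not stated. Jun and Jund rose by 1.28 ± 0.33 and 1.44 ± 0.34, but 52.6% of the exon bases of Jund also overlap another gene. Fosb, an immediate early gene, stood at 7.01, 0.672, 1.59 and 1.66 CPM against 2.52, 24, 25.1 and 8 CPM and was not called. The median, 0.26, turned to -0.53 with library totals.

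Of 11 ligands and receptors of the EGF family, 5 ligands rose by over 2-fold, and the ligand Egf and the receptor Erbb4 fell by over 2-fold. Hbegf stood at 132, 91.9, 246 and 251 CPM against 17.1, 15.4, 16.6 and 19.9 CPM, a log2 fold change of 3.39 ± 0.33 (edgeR adjusted p = 9.6e-05). Areg, Epgn, Tgfa and Ereg were the other 4, at 3.51 ± 0.61, 2.88 ± 0.49, 2.11 ± 0.38 and 1.91 ± 0.33. Egf stood at 2.04, 1.91, 1.26 and 1.68 CPM against 7.42, 18.5, 8.31 and 6.24 CPM. The ligand Btc fell without passing the 2-fold test, at -1.44 ± 0.35. Egfr, the receptor, stood at 134, 135, 173 and 178 CPM against 246, 219, 214 and 215 CPM, a log2 fold change of -0.53 ± 0.13. Erbb4 had no count in the tumours and stood at 0.231, 0.811, 0.316 and 0.602 CPM in skin, at least 6.37-fold lower with 3 counts set in each tumour library. The raised count was 3 with DESeq2 or without K14 tumour 3.

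Cytokines of the IL-20 and IL-6 families and genes of the STAT3 pathway were raised in 5 of 15 cases by over 2-fold, with a median of 1.61. With library totals 2 were raised and 3 lowered by over 2-fold, and the median was 0.79. Il24, a cytokine that wounded epidermis makes, stood at 13.1, 3.04, 15.7 and 22.1 CPM, and with 1 count at most in each skin library it was at least 354-fold higher. Il19 and Il11 rose by 3.84 ± 0.67 and 2.04 ± 0.35 from low levels, and Il6, also among the 5, by 2.665 ± 0.70. Socs3, a target and inhibitor of STAT3, stood at 49.1, 44.7, 121 and 130.2 CPM against 12.3, 21.8, 19.9 and 23.7 CPM. Stat3 rose by 0.88 ± 0.20. The receptor chains Il6st, Il6ra and Il20ra fell, at -0.96 ± 0.21, -0.82 ± 0.25 and -1.75 ± 0.61, while Il22ra1 rose, at 1.61 ± 0.45.

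Several IL-1 family genes, which keratinocytes use as alarm signals, rose, with 7 of 15 members raised by over 2-fold and 11 raised in all. Il1f9, an IL-36 cytokine, stood at 319, 362, 612 and 525 CPM against 22.8, 35.1, 34.8 and 35.6 CPM. Il1f6 and Il1f8, the other IL-36 agonists, rose by 4.66 ± 0.32 and 4.21 ± 0.26, and Il1f5, the IL-36 receptor antagonist, rose by 2.86 ± 0.19. Il33, an alarmin released by damaged cells, stood at 132, 126, 446 and 401 CPM against 15.4, 51.6, 28.6 and 24.8 CPM, with tumours 3 and 4 above 1 and 2. Il1a rose by 3.63 ± 0.36. Il1b stood at 10.2, 2.15, 43.5 and 14.7 CPM against 0.461, 3.33, 2.29 and 3.51 CPM, and tumour 2 overlapped with skin. The receptor Il1r1 fell, at -0.61 ± 0.13.

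Antimicrobial and alarmin genes rose in 9 of 15 cases by over 2-fold, with a median of 4.69, or 4.59 with genes absent from skin at their lower bound. S100a8 stood at 853, 838, 1745 and 1564 CPM against 16.4, 7.26, 15.7 and 9.7 CPM, and its partner S100a9 stood at 1299, 994, 2859 and 2508 CPM against 1.58, 2.38, 15.5 and 17.7 CPM. Slpi, an inhibitor of neutrophil elastase, stood at 718, 548, 1567 and 1490 CPM against 1.75, 0.615, 4.86 and 4.46 CPM, a log2 fold change of 8.53 ± 0.85. For all 3 genes tumours 3 and 4 were above 1 and 2. Defb14 rose by 5.14 ± 0.58, and Defb3 was at least 277-fold higher than in skin, where it had no count. Defb6 fell, at 28.9, 4.97, 2.51 and 2.97 CPM against 32, 77.5, 106 and 161 CPM.

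Neutrophil chemokines and their receptors rose from low levels. With other neutrophil markers they made a list of 14 members tested, 7 of them raised by over 2-fold. That count ran from 4 with the replicate number as a block to 10 without K14 tumour 2. Cxcr2, the neutrophil chemokine receptor, stood at 24, 22.5, 25.8 and 33.2 CPM against 1.69, 0.445, 1.11 and 1.6 CPM. Cxcl2 stood at 5.3, 1.61, 33.2 and 12 CPM against 0, 0.393, 0.763 and 0.363 CPM, and Cxcl5, with 1 count at most in skin, was at least 72-fold higher. Mmp8, a collagenase of neutrophil granules, was among the 7, at 1.38, 0.269, 1.17 and 0.682 CPM against 0.138, 0.131, 0.0327 and 0.125 CPM. Other granule genes were low in both groups, with Elane and Mpo at 0.375 CPM or less in every library. Elane fell by adjusted p, at -3.53 ± 1.17, and Mpo was not called. Csf3r and Retnlg, other neutrophil markers of the list, were not called either, with log2 fold changes of 1.008 and 0.52. Ltf and Ngp, of the later granules, passed the adjusted p but not the 2-fold test, and Ltf stood at 6.12, 0.0269, 0.168 and 0.268 CPM against 0.0154, 0.0131, 0.0763 and 0.0682 CPM, with tumour 1 the highest. The list median was 3.80, or 3.09 with genes absent from skin at their bound.

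Macrophage and monocyte genes did not move as a group, 1 of 13 raised by over 2-fold and none lowered, with a median of -0.74. That member was Arg1, which breaks down arginine in macrophages and is also made by keratinocytes, at 752, 1167, 2534 and 1782 CPM against 50.2, 80.3, 68.4 and 70.8 CPM. Csf1r, the receptor that defines macrophages, stood at 74, 41.6, 39 and 43.8 CPM against 35.6, 26.9, 165 and 203 CPM and was not called. Skin 3 and 4 were far above skin 1 and 2 here, and the tumours lay between. The same split was seen for MHC class II. Cd74 stood at 263, 173, 140.0 and 199 CPM against 108, 119, 780.0 and 979.6 CPM, and its class II transactivator Ciita, at -1.73 ± 0.36, was the 1 of 10 Langerhans and dendritic cell members lowered by over 2-fold, a count of 0 with DESeq2 and without K14 tumour 2, 3 or 4 or skin 3 or 4. In bulk tissue fewer cells of a type and less RNA per cell cannot be told apart, here and for every cell type below.

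T cell genes were low throughout, with 5 of 11 members lowered, 2 of them by over 2-fold, and none raised. Their summed levels overlapped, at 8.27 to 21.6 CPM in tumours and 11.2 to 49.6 CPM in skin, where skin 1 was the lowest. Cd3e stood at 0.82, 0.645, 0.307 and 0.633 CPM against 1.12, 3.57, 4.74 and 5.49 CPM, and Trdc, the constant gene of the gamma-delta receptor of epidermal T cells, stood at 0.633, 0.913, 0.419 and 0.487 CPM against 0.83, 3.93, 5.36 and 7.38 CPM. Both fell by over 2-fold, and for both skin 1 was the lowest of the skin libraries. The count was 4 without K14 tumour 1, 3 without skin 1 and 1 without K14 tumour 3 or 4. Interferon-stimulated genes showed 0 of 12 members called by the 2-fold test in edgeR or DESeq2, and 1 member, Isg15, passed the adjusted p, at 1.06 ± 0.34, with 2 at an unadjusted p under 0.05. Mast cell genes showed 0 of 7 by the 2-fold test in edgeR or DESeq2 and 1 without K14 tumour 2, while 2, Fcer1a and Hdc, rose by adjusted p and 2 passed an unadjusted p of 0.05. The summed mast cell level was 5.27 and 5.43 CPM in skin 1 and 2 and 161.6 and 193.6 CPM in skin 3 and 4, with the tumours between 23.9 and 142.8 CPM.

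Matrix proteases rose in 8 of 16 cases by over 2-fold, with a median of 2.55. Mmp13, a collagenase, stood at 78.2, 53.8, 531 and 356 CPM against 0.461, 0.223, 2.46 and 3.49 CPM, and Mmp9, a gelatinase, stood at 146, 86.6, 542 and 372 CPM against 0.969, 2.6, 15.4 and 19.2 CPM. Mmp10, a stromelysin, stood at 5.77, 8.22, 109 and 69.8 CPM against 0.108, 0.0131, 0.272 and 0.114 CPM. For these 3 genes tumours 3 and 4 were above tumours 1 and 2, and no tumour overlapped with skin. Plau, the urokinase protease, rose by 2.28 ± 0.30. Mmp1a and Mmp1b had no count in skin and were at least 84.3-fold and at least 220-fold higher. Timp3, an inhibitor of these proteases, fell, at 51, 23.8, 22.8 and 26.1 CPM against 117, 84.2, 139.8 and 210.5 CPM.

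Stromal genes split by gene. Tnc (tenascin C), a matrix protein of wounds, stood at 418, 479.5, 311 and 369.6 CPM against 83.9, 10.1, 31.2 and 49.7 CPM, and Col12a1 stood at 1150, 1262, 857 and 1313 CPM against 161, 40.2, 131 and 121 CPM. Tnn stood at 174, 278, 26.9 and 64.5 CPM against 0.876, 0.484, 2.54 and 4.02 CPM. These 3 of 12 activated stroma members rose by over 2-fold, and for Tnn tumours 1 and 2 were above 3 and 4. Postn, made by activated fibroblasts, stood at 2343, 2423, 369.8 and 1059 CPM against 86.3, 484, 354 and 1237 CPM and was not called, and skin 2 and 4 overlapped with the tumours. Fap, a fibroblast protease of the same list, fell by over 2-fold, at -2.17 ± 0.31. Dermal collagens and proteoglycans showed 0 of 14 called by adjusted p in edgeR, 1 at an unadjusted p under 0.05, and none over 2-fold with DESeq2. Without K14 tumour 1, 3 were lowered by over 2-fold. With all libraries their summed levels overlapped, at 5719 to 18180 CPM in tumours and 1130 to 23890 CPM in skin. Vessel genes showed 0 of 12 by the 2-fold test (4 at an unadjusted p under 0.05), and by adjusted p 2 rose and 2 fell. Tie1 and Emcn, genes of endothelium, rose by 1.75 ± 0.49 and 2.40 ± 0.76. Tek, the angiopoietin receptor, and Prox1, a factor of lymphatic endothelium, fell, at -1.58 ± 0.51 and -1.66 ± 0.59. Each of these 4 calls was lost without 1 or more single libraries, for Tie1 without K14 tumour 3, for Emcn without K14 tumour 3 or 4 or skin 2, and for Tek and Prox1 without K14 tumour 2, 3 or 4 or skin 3 or 4. With library totals the calls of Tie1 and Emcn were lost. The groups overlapped for Tek and Prox1.

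Hair follicle stem cell genes fell, 10 of 11 by adjusted p and 3 by over 2-fold, and none rose. The second count was 5 without K14 tumour 1. Sox9, a factor of the bulge and outer root sheath, stood at 30.1, 13.5, 16.3 and 22.4 CPM against 83.3, 96.5, 76 and 125 CPM. Lgr6 stood at 9.89, 8.38, 2.12 and 4.38 CPM against 45.4, 83.8, 35.2 and 25.2 CPM and Tcf7l2 fell, at -1.58 ± 0.12. The groups did not overlap for these 3 genes. Lgr5 and Lhx2, which mark the lower follicle and bulge, fell as well, at -2.73 ± 0.96 and -3.77 ± 1.32, with tumour 1 the highest tumour for both, and both calls were lost without any 1 library other than K14 tumour 1. Of 11 Hedgehog pathway members 3 fell by over 2-fold, among them Ptch1 and Hhip, targets of Hedgehog signalling in the growing follicle, at -1.89 ± 0.41 and -2.75 ± 0.64. That count was 0 without K14 tumour 2 or 4 or skin 1 or 3, 1 without K14 tumour 3 and 6 without K14 tumour 1. Lef1, a Wnt effector of hair matrix, stood at 3.14, 0.457, 1.06 and 1.22 CPM against 68.4, 5.94, 18.6 and 4.82 CPM, the 1 of 16 Wnt members lowered by over 2-fold, a count of 2 without K14 tumour 1 and of 0 without K14 tumour 2, 3 or 4 or skin 1 or 3. Wnt4 and Wnt10a were the 2 raised, at 2.12 ± 0.21 and 1.58 ± 0.16. For the 16 Wnt members both counts were close to the shares over all protein-coding genes, 9.48% lowered and 8.89% raised.

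Hair keratins and inner root sheath genes showed 0 of 21 members called by the 2-fold test in edgeR and 1 with DESeq2, 1 passed an unadjusted p of 0.05, and the median was -2.45. Krt71, of the inner root sheath, stood at 541, 24.6, 0.335 and 0.195 CPM against 1436, 1.07, 701 and 558 CPM, and Krt25 stood at 311, 17.5, 0 and 0.463 CPM against 732, 1.2, 450.4 and 238 CPM. Tumour 1 was near the skin level and skin 2 near the level of the other tumours, so the groups overlapped. Without K14 tumour 1, 8 of 21 members were lowered by over 2-fold and the median was -6.38.

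Sebaceous gland, fat, muscle and pigment cell genes fell in part. Scd1, the desaturase of sebum and fat, stood at 615, 141, 95.5 and 127 CPM against 1345, 3427, 4023 and 2921 CPM, and 3 of 11 sebaceous members fell by over 2-fold. Plin4, of the lipid droplet, stood at 22.9, 4.19, 4.25 and 2.51 CPM against 119, 158, 211 and 279 CPM, and 4 of 10 adipocyte members fell by over 2-fold. Fabp4, also an adipocyte gene but shared with endothelium and macrophages, stood at 203, 812, 707 and 611 CPM against 66.8, 77.6, 476 and 405 CPM and was not called. Ckm, the muscle creatine kinase, stood at 45.3, 2.31, 0 and 0 CPM against 226, 544, 402 and 230.2 CPM and was not called, with tumour 1 far above the other tumours. Of 16 muscle members 8 fell by over 2-fold. Mitf, the master factor of melanocytes, stood at 9.31, 4.73, 4.5 and 5.21 CPM against 34.6, 27.3, 26.9 and 39.8 CPM, and with Sox10, at -3.67 ± 0.69, made the 2 of 9 melanocyte members that fell by over 2-fold. Leaving out K14 tumour 1 raised these counts to 8 of 11 sebaceous, 8 of 10 adipocyte, 16 of 16 muscle and 6 of 9 melanocyte members. Leaving out any 1 other library gave 2 (without K14 tumour 2) to 5 muscle members and 1 or 2 adipocyte members, and 2 sebaceous members without K14 tumour 4. Schwann cell and nerve genes fell in 6 of 8 cases, 3 by over 2-fold (5 without K14 tumour 1, 2 without K14 tumour 2 or 4 or skin 2, 3 or 4).

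**Figure D4:**
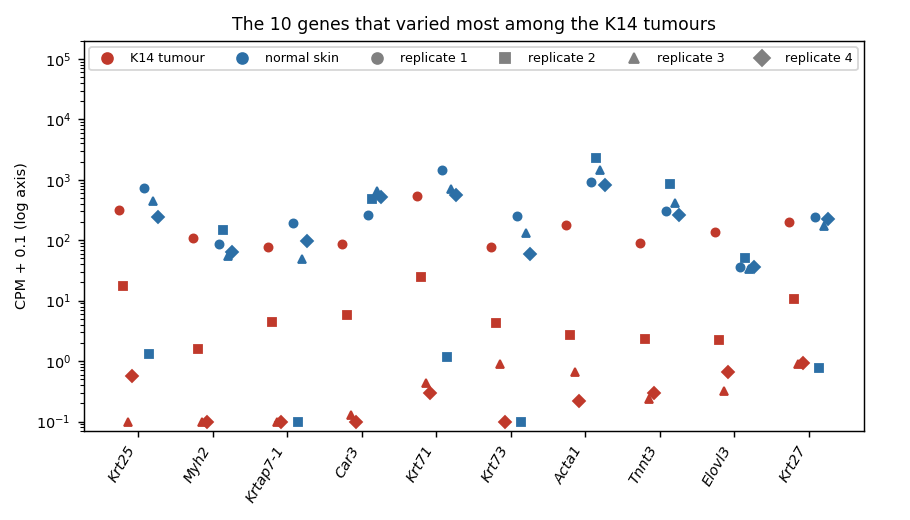
Levels (vertical axis, CPM with a small offset added, log axis) of the protein-coding genes that varied most among the K14 tumours, with tumours in red, skin in blue and a marker for each replicate number. Tumour 1 is the highest tumour for every gene drawn, within the range of skin for 6 of them, and skin 2 is low for the hair keratins.

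The tumours differed among themselves in these same tissues. Of 7904 protein-coding genes with at least 20 CPM on average in the tumours, 96 had a standard deviation over 1 in log2 CPM, against 310 in skin, and the median was 0.161 against 0.233. Tumour 1 was the highest for 44 of the 96, tumour 2 for 10, tumour 3 for 29 and tumour 4 for 13. The 10 genes with the largest spread were Krt25, Myh2, Krtap7-1, Car3, Krt71, Krt73, Acta1, Tnnt3, Elovl3 and Krt27, genes of hair, muscle, fat and sebaceous gland, and tumour 1 was the highest in each. Elovl3, a fatty acid elongase of sebaceous gland and brown fat, stood at 138, 2.18, 0.223 and 0.56 CPM against 36.6, 51.5, 33.7 and 35.4 CPM. Its log2 fold change was -0.15 ± 1.64, and without tumour 1 it was -5.38 (edgeR adjusted p = 0.00094).

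Proliferation genes rose moderately, 11 of 16 by adjusted p and 1, Ccne1, by over 2-fold, with a median of 1.09. Plk1, a mitotic kinase, stood at 45.7, 38.7, 43.6 and 47 CPM against 27, 9.97, 18.3 and 7.21 CPM, and Ccnd1, the cyclin that ERK induces, stood at 127, 119, 178 and 164 CPM against 112, 32.2, 86.5 and 50.1 CPM. Skin 1 was the highest skin library for both, and the 16 genes of the list summed to 1612 CPM in it against 556.9 to 1070 CPM in the other skin libraries and 1391 to 1856 CPM in the tumours. Mki67 was not called, at 331, 322, 384 and 467 CPM against 618, 293, 373 and 156 CPM. Without skin 1, 7 of 16 members were raised by over 2-fold, and with DESeq2 or without any 1 of the other libraries none was. Cdkn2a, which encodes the inhibitors p16 and p19, stood at 13.1, 23.8, 10.8 and 13.1 CPM against 0.861, 0, 0.752 and 1.11 CPM, and tumour 2 was the highest. Cdkn2b and Bax were the others of 12 CDK inhibitor and p53 target genes that rose by over 2-fold, at 1.79 ± 0.26 and 1.46 ± 0.15, and Cdkn1a rose by 1.22 ± 0.12.

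Of Myc and ribosome biogenesis genes, most rose, 12 of 14 by adjusted p and 4 by over 2-fold. Myc stood at 76.6, 76.1, 111 and 107 CPM against 47.8, 43.9, 40 and 40.4 CPM. Npm1, Nolc1, Rrs1 and Bop1, which act in the nucleolus, were the 4 raised by over 2-fold, at 1.32 ± 0.15, 1.33 ± 0.16, 1.46 ± 0.15 and 1.34 ± 0.15, close to that threshold. None of the members passed the 2-fold test with DESeq2, with library totals or without K14 tumour 3, and 6 did without skin 1, with 1 to 3 passing without any other 1 library.

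Glycolysis and hypoxia genes rose throughout, 18 of 19 by adjusted p and 16 by over 2-fold, with a median of 2.02. Slc2a1, the glucose transporter GLUT1, stood at 694, 576, 798 and 737 CPM against 47.5, 81.8, 71.8 and 72.3 CPM, a log2 fold change of 3.36 ± 0.20 (edgeR adjusted p = 2.4e-05). Eno1 stood at 1921, 2244, 2695 and 2481 CPM against 289, 303, 425 and 415 CPM and Pkm at 2873, 3166, 4212 and 3845 CPM against 564, 760.4, 713 and 702 CPM. Ldha, which makes lactate, rose by 1.85 ± 0.18, and Slc16a3, which exports it, by 2.69 ± 0.35. Hif1a and Vegfa rose by 2.02 ± 0.19 and 1.90 ± 0.27. With library totals 7 of the 19 passed the 2-fold test. Nuclear genes of the respiratory chain rose less, 12 of 14 by adjusted p but 1, Cox5a, by over 2-fold, with a median of 0.94. Among NRF2 targets and glutathione genes, 5 of 12 rose by over 2-fold. Gsta4, which detoxifies lipid aldehydes, stood at 978, 879, 2223 and 1916 CPM against 30.8, 49.7, 51.8 and 45.7 CPM, and Hmox1, heme oxygenase, stood at 158, 207, 593 and 367 CPM against 28.9, 34.6, 65.4 and 100.4 CPM. With library totals 1 of these 12 passed.

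Regulators of epithelial-mesenchymal transition were mixed, 1 of 10 raised by over 2-fold and 2 lowered. Snai2 stood at 43.8, 44.5, 80.9 and 85.8 CPM against 22.9, 22.3, 16.7 and 21.8 CPM and rose, a call lost in the 2-fold test with DESeq2 and without K14 tumour 3 or 4 or skin 3, while Zeb2 stood at 35.8, 23.8, 30.1 and 30.1 CPM against 86.5, 92.2, 148 and 151 CPM and fell. Cdh1 (E-cadherin) rose, at 1.09 ± 0.19, and Cdh2 (N-cadherin) fell, at -2.28 ± 0.31. Of 12 Notch pathway genes, Dll4, a ligand of vessel sprouts, was the 1 raised by over 2-fold, at 15.2, 15.7, 31.4 and 28 CPM against 1.63, 4.14, 3.05 and 2.54 CPM (2 members without skin 1), and by adjusted p 4 rose and 2 fell. The receptors Notch1 and Notch2 fell, at -1.17 ± 0.25 and -0.74 ± 0.14, while the receptor Notch4 and the target Hes1 rose, at 1.36 ± 0.37 and 1.25 ± 0.25, calls lost with library totals and, for Notch4, without K14 tumour 3. The ligand Dll1 was at 0.54 ± 0.16 and turned to -0.24 with library totals, and its call was lost without K14 tumour 3 or 4 or skin 3. HOX genes, which record position along the body, changed in both directions, 4 of 27 raised and 6 lowered by over 2-fold. The raised count was 2 with DESeq2 and without any 1 library other than skin 2. Hoxa9 stood at 31.5, 40.8, 17 and 24.8 CPM against 0.169, 1.14, 0.163 and 0.318 CPM, and Hoxc8 stood at 4.01, 1.56, 0.559 and 1.29 CPM against 21.8, 20.9, 42.7 and 51.2 CPM. Hoxa7 rose by 1.70 ± 0.34, and Hoxb3 and Hoxb5 fell, at -4.68 ± 0.80 and -4.58 ± 0.88. Other genes overlap 52.9% of the exon bases of Hoxb3, so its value is uncertain. In the fit over all 19 libraries 1 of the 27 was raised by over 2-fold and 0 lowered. Over 15 libraries, with the same Ivl-origin and K5-origin tumours left out as for the differentiation genes, 2 were raised and 5 lowered. The study places tumours of this model on the back, the body site of the skin samples is not given, and its part in these values was not tested.

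Genes of other classes moved mostly downward. Of 2207 genes of the class TEC, loci that still await experimental checks, 52.7% fell by over 2-fold, of 283 sense intronic transcripts 51.9%, of 2248 antisense transcripts 29.4% and of 373 snRNA genes 36.2%, against 9.48% of protein-coding genes. Rn7sk, the RNA that holds the elongation factor P-TEFb, stood at 8.86, 8.27, 16.9 and 12.9 CPM against 1602, 2486, 1849 and 2200 CPM, a log2 fold change of -7.44 ± 0.33. It shares 61% of its windows with copies elsewhere. Scarna2 stood at 1.15, 1.02, 1.51 and 1.58 CPM against 60.7, 86.7, 57.5 and 68.7 CPM. Rnu1a1, Rn7s2 and Gm22513, small nuclear and signal recognition particle RNAs, were the other genes lowered most, and all windows of Rnu1a1 and Rn7s2 (100%) are shared with copies. Of 63 replication-dependent histone genes 50 fell by over 2-fold and none rose. Between 23000001 and 24000000 on chromosome 13, where a histone cluster lies, 25 of 38 protein-coding genes fell by over 2-fold.

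Transcripts without a poly(A) tail, small RNA classes and histones together, made up 0.152% to 0.247% of counts in the tumours and 0.511% to 0.646% in skin. TEC, antisense, sense intronic and lincRNA genes made up 0.504% to 0.761% and 1.56% to 3.09%, and protein-coding genes 97.9% to 98.1% and 93.2% to 95.8%. None of these 3 ranges overlapped between the groups. The libraries are labelled poly(A), and the methods place mouse samples at 1 facility, apart from Ivl-origin tumours of another experiment that were depleted of ribosomal RNA elsewhere. The sequencing batch of each library is not given in the sources used here, and its part in these classes was not tested. The other genes raised most were mainly pseudogenes, some beside raised coding genes. Gm11597 lies at 100228845 to 100232078 on chromosome 11, between Krt14 and Krt16, and stood at 125, 153, 189.5 and 187 CPM against 0.338, 1.32, 0.534 and 0.886 CPM. Gm7463 lies inside Akr1d1 on chromosome 6 and stood at 25.9, 49, 38.4 and 34.2 CPM against 0.4, 0, 0 and 0 CPM. Gm3699, a processed pseudogene, and Gm47128, a lincRNA, rose by 5.36 ± 0.43 and 5.80 ± 0.80, and Sprr2g, annotated as a polymorphic pseudogene, by 7.41 ± 1.19.

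**Figure D5:**
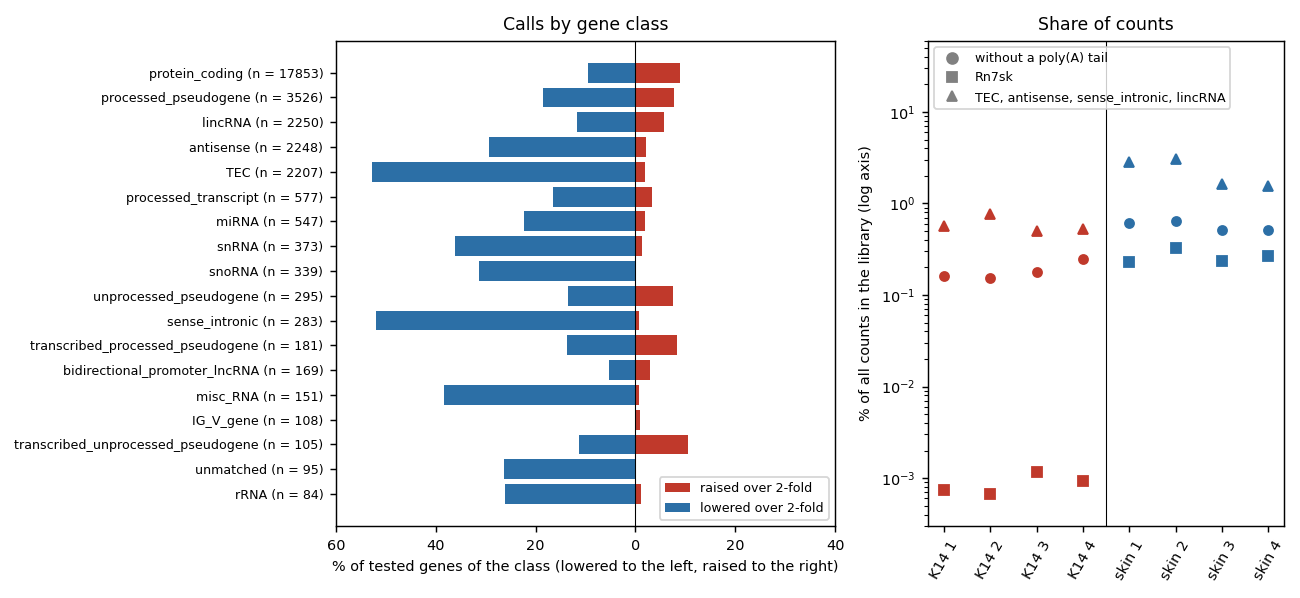
Left, percent of tested genes of each annotated class that fell (blue, to the left) or rose (red, to the right) by over 2-fold in K14 tumours. Right, percent of all counts (log axis) in each library held by transcripts without a poly(A) tail (circles), Rn7sk (squares) and the classes TEC, antisense, sense intronic and lincRNA (triangles), with tumours in red and skin in blue. The 3 sets are lower in every tumour than in every skin library, and 52.7% of TEC genes fell against 9.48% of protein-coding genes.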

How the data were processed

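RNA was sequenced from 4 K14 tumours and 4 normal skin samples as strand-specific poly(A) libraries, read as pairs. The authors deposited 1 table of estimated counts per gene for all 19 libraries, whole numbers after batch adjustment with ComBat-seq, so the values are no longer the raw counts and batch differences were altered before deposit. The submitters' processing notes name FastQC 0.11.8, Trim Galore, HISAT2 2.1.0 and featureCounts from Subread 1.6.3, with GRCm38 as the build. Whether counting used strand is not given in the sources used here.

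From these counts, 31628 genes reached 5 counts in 1 or more of the 8 libraries and were kept, and 3179 were left out. Kept genes were scaled by TMM factors, which lay at 0.698 to 0.845 in tumours and 1.23 to 1.42 in skin, and tested with edgeR 4.0.16 (robust quasi-likelihood fit, Benjamini-Hochberg adjustment, threshold 0.05) under R 4.3.3. The test against a 2-fold change was glmTreat. Gene classes and positions came from GENCODE M21, in which 34694 identifiers matched and 113 did not. Of genes changed by simulation among 29690, 10%, 56%, 82% and 94% with 2-, 4-, 8- and 16-fold changes were called by adjusted p, with 7 false calls. Replicates of a group differed by more than sampling noise. A lower bound on a fold set 3 counts in each library of the group without reads. CPM values rest on 45715309 to 71841193 counts per library.

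Genes were named by rule: Krt14, Krt5 and Braf, the 12 protein-coding genes raised and the 12 lowered most with at least 50 CPM, 5 and 5 of other classes with at least 20 CPM, members of fixed lists, the 10 most variable in tumours and the 10 highest per length. The members and lists were chosen with earlier results of these data known, so list counts are descriptions. Some genes that met these rules are not reported here. Alternatives covered DESeq2 1.42.0, other scalings, filters and library sets, a replicate block and leaving out each library. The number of per-sample columns left unused was 0.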

Additional observations from a re-analysis of the deposited data

Results flagged for a closer look

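Single libraries stood far from the other 3 of their group in 19 of 362 groups of gene values (5.25%) and in 6 of 90 groups of summed list levels (6.67%), where the gap to the nearest library passed Dixon's 95% critical value as a share of the range of log2(CPM + 1). Chance flags about 1 group in 20. In skin 2, Krt27 (share of the range 0.935), Krt71 (0.856) and Dusp6 (0.958) were low, and Hoxa7 (0.871) and Rn7s2 (0.854) were high. Dusp6 stood at 28.55 CPM there and at 67.55 to 70.15 CPM in the other skin libraries. Hoxa7 stood at 29.17 CPM there against 9.996 to 11.53 CPM.

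In skin 1, Il1f9 (0.953) and Btc (0.956) were low and Npm1 (0.893) was high, and the summed levels of late cornified envelope proteins (0.861), IL-24 and STAT3 signalling (0.839) and the IL-1 family (0.864) were low. Btc stood at 15.88 CPM against 40.64 to 42.42 CPM. In skin 3, Snai2 was low (0.845) and Mup22 high (0.897). In skin 4, Krt6a (0.879) and the sum of wound and stress keratins (0.866) were high, at 2841 CPM for the sum against 1162 to 1310 CPM.

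In K14 tumour 1, Timp3 (0.835), Ptch1 (0.873) and Sprr4 (0.865) were high, and Il1f6 (0.83), Hrnr (0.846), Krt78 (0.881) and Spink7 (0.923) were low. Krt78 stood at 267.4 CPM there against 563.5 to 623.2 CPM in the other tumours. In K14 tumour 2, Lor was high (0.887), and the summed levels of cholesterol synthesis (0.837) and of the epithelial-mesenchymal transition list (0.841) were low.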

How the results depend on the processing

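With library totals in place of TMM factors, 2571 genes rose and 16987 fell by adjusted p, 968 rose and 9954 fell by over 2-fold, and among protein-coding genes 619 rose and 4203 fell. The mean log2 CPM differences were then 3.07 for Krt14, 1.96 for Krt5 and -1.54 for Braf. In the fit over all 19 libraries, 3229 genes fell by over 2-fold, and 2177 protein-coding genes changed, 763 of them lowered. DESeq2 called 5836 genes by over 2-fold, of which 5760 were among the 7465. Without 1 library, the adjusted p called 13399 to 15568 genes, 5095 to 6312 raised and 7909 to 10175 lowered. The 2-fold test then called 5492 to 7832 genes, 1522 to 2196 raised and 3780 to 5878 lowered, and 2361 to 3754 protein-coding genes, 1073 to 1621 raised and 1116 (without K14 tumour 4) to 2371 (without K14 tumour 1) lowered. The differences were 3.65 to 4.0 for Krt14, 2.58 to 2.92 for Krt5 and -0.88 (without skin 2) to -0.51 (without skin 1) for Braf. Mki67 turned from 0.06 to -0.76 with library totals and to -0.079 with TMM factors from protein-coding genes, and lay between -0.19 and 0.46 without 1 library. Elovl3 lay between -5.38 and 0.26, and Dll1 was at -0.24 with library totals. The cause of these changes was not tested.

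Of 231 named genes that were checked this way, the adjusted p call of 207 was kept with library totals and that of 211 to 224 without 1 library. Krt15 lost its call without K14 tumour 4, skin 2 or skin 4, Lgr5 and Lhx2 without any 1 library other than K14 tumour 1, and Pvalb without K14 tumour 2. Ccnd1, Defb6, Dll1, Dst, Elane, Emcn, Fcer1a, Hdc, Il1b, Isg15, Jun, Ltf, Ngp, Notch4, Prox1, Tek and Tie1 each lost it without at least 1 library. At this depth and spread, 10% of simulated 2-fold changes were called.

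Deviations of tumour and skin with the same replicate number correlated at -0.0207, 0.141, -0.0683 and -0.06. Those with different numbers correlated between -0.307 and 0.221, so these values cannot show whether the numbers pair the samples. With the number as a replicate block, 4459 genes changed by over 2-fold, 2720 of them lowered, and 1034 protein-coding genes were lowered.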

Other observations

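Mitochondrial transfer RNA genes went against the other small RNA classes. Of 17 tested, 14 rose by over 2-fold in the tumours (82.4%) and none fell, although the mitochondrial genes as a set held 1.6% to 1.96% of counts in the tumours and 2.87% to 4.65% in skin. mt-Tn averaged 5.89 CPM in tumours and 0.23 CPM in skin, and mt-Tc averaged 3.36 CPM and 0.387 CPM. mt-Tp, the most abundant of them, averaged 27.8 CPM and 16.6 CPM and did not pass the adjusted p. These genes lie between longer mitochondrial genes, most stood near or below 1 CPM, and whether reads were counted on the gene or came from a neighbour was not tested.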
